A study of Mus musculus with 29 samples.

Results

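Ubiquitin-specific proteases, the genes named Usp, form the largest family of deubiquitinases. A deubiquitinase removes ubiquitin, a small protein tag, from other proteins or trims chains of it, and so acts against the ligases that attach the tag. Ubiquitin chains send proteins to the proteasome and also mark histones, DNA repair factors and receptors at the cell surface, and family members are known in each of these settings. In muscle cells, ubiquitin-dependent turnover accompanies the exit from the cell cycle and the rebuilding of the cell during differentiation. The members described here were all genes of the deposited poly(A) site table whose symbol is Usp followed by a number and that had at least 100 reads over the 26 3' end libraries. The table listed 50 such symbols, and 43 of them reached 100 reads, of 15954 symbols with at least 1 read. Just inside the limit lay Usp29 with 105 reads and Usp53 with 184, and just outside lay Usp54 with 90 and Usp9x with 40. The other symbols left out were Usp44 with 18 reads, Usp18 with 2, Usp26 with 1, and Usp50 and Usp9y, which were listed at 0. The rule works on symbols: Usp6nl is a Rab GTPase-activating protein with a name taken from USP6, and Usp39 is a splicing protein whose protease-like domain lacks activity. Both were kept, since the rule includes them.

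The cells were C2C12, a mouse myoblast line that fuses into myotubes when serum is changed, and all samples came from that line without any genetic change. The study separated the cells into cytosol and membrane fractions and measured poly(A)-tailed RNA ends with 3'READS+, whose reads start at the transcript end beside the tail and so count both the gene and the site used. For 16 libraries the fractions were further split on gradients into polysomes, with several ribosomes per mRNA, and monosomes, with 1 ribosome, in proliferating cells (DMEM with fetal bovine serum) and differentiating cells (horse serum), as 8 groups of 2 replicates. The labels of the 4 differentiating monosome libraries name the fetal bovine serum medium although their status is differentiating. A puromycin series of 8 libraries used a drug that makes ribosomes release their unfinished chain. Its cells grew in the proliferating medium and were either untreated or harvested after 0, 30 or 60 min in 100 µg/ml of it, and each exposure has a single cytosol and a single membrane library. A whole cytosol library, a whole membrane library and RNA-seq of 1 cytosol, 1 membrane and 1 insoluble fraction completed the series. The labels do not say whether replicates were separate cultures, so p-values measure the spread between these libraries, which may be technical. Levels are given as CPM, a gene's reads per 1000000 reads of its library, scaled by TMM within the gradient and within the puromycin libraries, and by the total in the whole-fraction libraries, and these 3 scales were not compared.

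Each 3' end library held 2964852 to 11631401 reads, of which the members took between 0.0674% and 0.166%. The fraction labels were met by their marker genes: the summed level of 4 genes for secreted or membrane proteins (Hspa5, Pdia3, Calr, Cd63) was 770 to 5288 CPM in the cytosol gradient libraries and 8354 to 33708 in the membrane ones. The state labels were met too, with a summed level of 7 differentiation genes with reads (among them Myog and Myh3) of 26.5 to 251 CPM in proliferating and 1878 to 12125 in differentiating libraries. The differentiating libraries fell in 2 levels by replicate number, since replicate 1 lay at 6810 to 12125 and replicate 2 at 1878 to 2563. Markers of macrophages (1 of 3 genes with reads), endothelium (2 of 2) and adipocytes (2 of 2) stayed at or below 0.16, 0.34 and 1.30 CPM in every library of the gradient and puromycin sets.

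Family members differed widely in level. Averaged over the 16 gradient libraries, Usp39 was highest at 97.7 CPM, followed by Usp47 at 85.4, Usp20 at 78.8, Usp36 at 76.0 and Usp5 at 72.9. At the low end stood Usp53 at 0.46, Usp29 at 1.28 and Usp33 at 1.73. A 3' end read counts 1 transcript whatever its length, so these levels can be set beside each other across genes. Of the 43 members, 9 used a single major poly(A) site, 16 used 2 and 18 used 3 or more. A major site held at least 5% of the gene's reads on the strand with most of them. Levels and gene tests, in contrast, sum all sites of a symbol on both strands. In the gradient fit 42 members passed the filter on low counts, and Usp53 did not; in the puromycin fit 40 passed, without Usp29, Usp53 and Usp8. Usp27x is a near copy of Usp22, and Usp12 and Usp46 are close relatives, so the authors' read assignment could split reads between such copies.

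Differentiation went with lower levels of more members than higher ones. Against proliferating cells, 3 of 42 members were higher and 12 lower, where 16.3% of all 11176 genes tested were higher and 19.2% lower (edgeR's quasi-likelihood test, Benjamini-Hochberg adjusted p under 0.05). In all, 35.7% of the members passed the threshold. The median log2 difference was -0.22 over the members and -0.09 over all genes. For 4 members the 8 differentiating libraries lay entirely below the 8 proliferating ones, where 2.12% of all genes did so. For 0 members they lay entirely above, where 2.43% of all genes did so.

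Members known from DNA replication and repair held the largest fall. Usp1, which deubiquitinates FANCD2 and PCNA, ranged from 6.89 to 19.1 CPM in proliferating libraries with a median of 10.3. In differentiating libraries Usp1 ranged from 0.446 to 3.66 with a median of 1.91, so the 2 states did not overlap. Usp1 fell by 2.87 on the log2 scale (SE 0.28, adjusted p = 7.80e-06). Usp37, which stabilises cyclin A, also separated the states: 6.64 to 16.9 with a median of 11.1 in proliferating libraries, against 1.78 to 5.996 with a median of 4.32 in differentiating ones. Usp37 fell by 1.41 (SE 0.29, adjusted p = 0.00204). Usp48 and Usp45, the second of which acts on the repair nuclease ERCC1, overlapped between states; their log2 differences were -0.62 (adjusted p = 0.0175) and -0.45 (adjusted p = 0.0499). Usp45 had the highest p of the 12 members that fell and is named to complete the group. Unlike the other calls, that of Usp45 was not followed singly with libraries left out or with other settings. Usp11, linked to BRCA2 and homologous recombination, went the other way within this group. It lay at 3.76 to 12.5 in proliferating and 8.91 to 18.6 in differentiating libraries, a log2 difference of 0.83 (SE 0.28, adjusted p = 0.0315). In the replicate 2 libraries the states were apart for Usp11, and in the replicate 1 libraries they overlapped. Of the 8 members on this list, 1 rose, 4 fell and 3 did not pass, with a median of -0.33.

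Among members that act on chromatin, Usp49, a histone H2B deubiquitinase, fell by 1.47 (SE 0.25, adjusted p = 5.24e-04). Its libraries lay at 6.58 to 19.0 in proliferating cells with a median of 10.4, and at 1.63 to 6.12 with a median of 3.94 in differentiating cells, without overlap. Usp21, a histone H2A deubiquitinase, rose by 0.94 (SE 0.24, adjusted p = 0.00905). Its levels depended strongly on the gradient and so overlapped: 7.52 to 74.7 with a median of 21.2 in proliferating libraries, and 12.8 to 209 with a median of 35.5 in differentiating ones. Within each fraction and gradient combination, though, both differentiating libraries of Usp21 lay above both proliferating ones on the TMM scale. In cytosol monosomes the gap was narrow, with 209 and 74.9 CPM against 74.7 and 71.7. The second differentiating library there had 165 reads of 2964852, and the first proliferating one 271 of 3839710. By the plain library total their order was reversed. Of the 7 tested members on the chromatin list, Usp49 and Usp21 were the 2 that passed. Usp43, for which no role is given here, fell by 1.74 (SE 0.38, adjusted p = 0.00312), from 2.20 to 4.68 CPM in proliferating libraries to 0.201 to 1.82 in differentiating ones, again without overlap.

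Usp2 showed the largest rise. This protease, known for cyclin D1 and for clock and membrane receptor proteins, lay at 1.11 to 3.35 CPM in the 8 proliferating libraries. In differentiating cells the cytosol polysome libraries had 30.7 and 10.8 and the membrane polysome libraries 39.7 and 11.3. The monosome libraries had 12.9 and 1.82 in the cytosol and 24.1 and 4.08 in the membrane. Replicate 1 is named first in each pair and was the higher one in all 4, as the differentiation markers were. The log2 difference was 2.71 (SE 0.47, adjusted p = 7.83e-04), and with any 1 of the 16 libraries left out it was 2.20 to 2.92 with an adjusted p of at most 0.00943. The part of the uneven marker levels in the state results was not tested.

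Ubiquitin recycling and the proteasome are served by Usp5, which takes apart free ubiquitin chains, Usp13, its relative, and Usp14, which sits on the proteasome. Usp14 was 0.94 lower on the log2 scale in differentiating cells (SE 0.26, adjusted p = 0.0124), with a median of 33.1 against 62.7 CPM. Usp5 was 0.54 lower (adjusted p = 0.0329), with a median of 53.4 against 89.9 and a full overlap of the ranges. Usp13, named to complete the group, did not pass (log2 difference 1.04, adjusted p = 0.0666). In the RNA processing group, Usp10, which binds G3BP and rescues p53, had a log2 difference of -0.92 (adjusted p = 0.0103), and Usp36, the nucleolar member, one of -0.62 (adjusted p = 0.0174). Usp15, which acts on TGF-beta signalling, and Usp19, anchored in the endoplasmic reticulum, had differences of -0.61 (adjusted p = 0.0350) and -0.64 (adjusted p = 0.0377). The other members attached to organelle membranes did not pass: Usp30, on mitochondria and peroxisomes, at 0.18 (adjusted p = 0.556), and Usp32, on Golgi and endosomes, at 0.11 (adjusted p = 0.690). Nor did the 3 most abundant members: Usp39 had -0.32 (adjusted p = 0.336), Usp47, a base excision repair regulator, -0.20 (adjusted p = 0.332), and Usp20, an endosomal protease, 0.58 (adjusted p = 0.144).

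Of these calls, Usp1, Usp2, Usp10, Usp14, Usp21, Usp37, Usp43 and Usp49 held with each of the 16 libraries left out in turn. Usp36 held in 14 of these, Usp48 in 13, Usp11 in 8, Usp5 in 6, and Usp15 and Usp19 in 5. The count of called members was 8 to 15 over these 16 fits. It was 8 without the second proliferating membrane polysome library. It was 9 without the second proliferating cytosol polysome or the second differentiating membrane polysome library. The share of all genes called in each of these fits is not given here, so the counts are not read as particular to the members. Usp5, Usp15 and Usp19 also missed the threshold with the size factors of DESeq2, with which all genes split into 2095 higher and 1846 lower instead of 1818 and 2146.

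**Figure D1:**
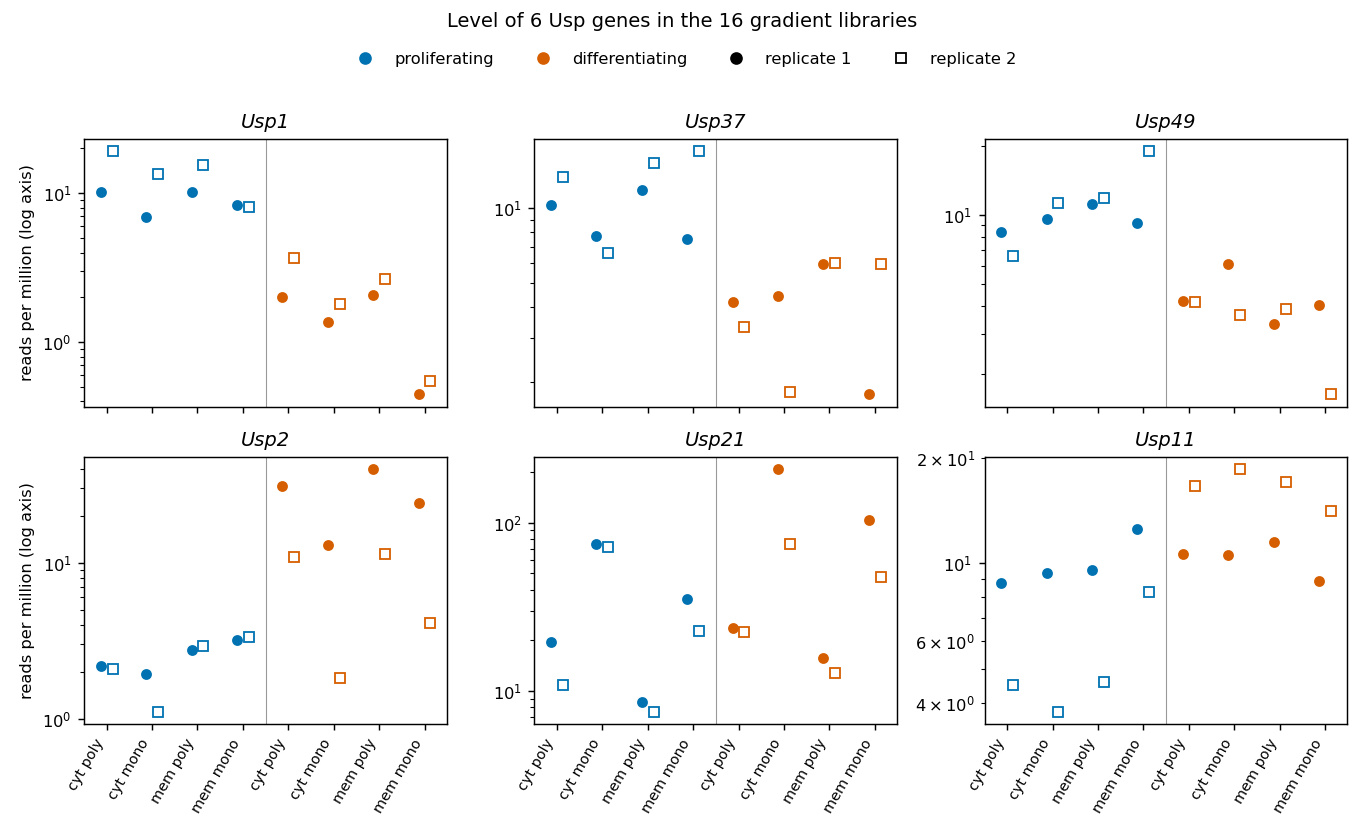
Level in CPM (vertical log axis) of Usp1, Usp37, Usp49, Usp2, Usp21 and Usp11 in each of the 16 gradient libraries, by cytosol (cyt) or membrane (mem) fraction and polysome (poly) or monosome (mono) part; blue is proliferating, orange differentiating, filled circles replicate 1 and open squares replicate 2. Usp1, Usp37 and Usp49 do not overlap between states, and Usp2 is higher in replicate 1 than in replicate 2 of every differentiating group.

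In the cytosol, members split between polysomes and monosomes. In proliferating cytosol 4 members were higher in polysomes and 2 in monosomes, where 11.5% of all genes were higher in polysomes and 12.8% lower. In differentiating cytosol 4 were higher and 5 lower, where 12.6% and 11.3% of all genes were. The median log2 difference of the members was -0.24 in proliferating and 0.24 in differentiating cytosol, against -0.02 and 0.07 over all genes. With the size factors of DESeq2 the median over all genes was -0.11 and -0.10, and in differentiating cytosol 1124 genes were higher and 1537 lower instead of 1409 and 1264.

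Usp5, Usp47 and Usp38 passed toward polysomes in both states. Usp5 had 99.4 and 121 CPM in the proliferating cytosol polysome libraries and 50.1 and 42.9 in the monosome libraries, a log2 difference of 1.25 (SE 0.37, adjusted p = 0.0255). In differentiating cytosol it had 142 and 78.2 against 33.3 and 22.2, a difference of 1.98 (SE 0.38, adjusted p = 0.00265). In each state both polysome libraries lay above both monosome libraries. Usp47 had 87.1 and 106 against 46.0 and 52.9 in proliferating cells (log2 difference 0.97, adjusted p = 0.0379) and 132 and 73.4 against 55.1 and 39.0 in differentiating cells (1.12, adjusted p = 0.0207). Usp38 is a low-abundance member: 2.36 and 5.78 against 0.275 and 0.664 in proliferating cytosol, and 3.41 and 4.99 against 0 and 1.36 in differentiating cytosol. Its log2 differences were 3.01 (adjusted p = 0.0255) and 2.75 (adjusted p = 0.0499), and the low level in monosomes limits both. Of these calls, Usp5 and Usp47 in proliferating cytosol held in 0 of 4 fits with a library left out, and Usp38 in 1 of 4 in either state. Usp47 in proliferating cytosol was also lost with the size factors of DESeq2 and with no filter (adjusted p up to 0.0556), and Usp38 in differentiating cytosol with these factors and with the DESeq2 test (up to 0.0623).

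Usp14 had 66.1 and 89.3 CPM in proliferating cytosol polysomes against 11.8 and 27.4 in monosomes, a log2 difference of 1.98 (SE 0.53, adjusted p = 0.0157). In differentiating cytosol it had 43.7 and 42.4 against 8.16 and 22.2, and the difference of 1.52 did not pass (adjusted p = 0.0549). Usp45 passed in differentiating cytosol, with 41.5 and 43.1 against 12.2 and 20.9 (log2 difference 1.36, adjusted p = 0.0128).

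Usp21 stood farthest to the monosome side. Its proliferating cytosol libraries had 19.5 and 10.9 CPM in polysomes and 74.7 and 71.7 in monosomes (log2 difference -2.26, SE 0.50, adjusted p = 0.00600). The differentiating cytosol libraries had 23.7 and 22.5 against 209 and 74.9 (-2.62, SE 0.50, adjusted p = 0.00266). The membrane fraction showed the same order, with 8.58 and 7.52 against 35.2 and 22.8 in proliferating cells (-1.85, adjusted p = 0.109) and 15.8 and 12.8 against 103 and 47.3 in differentiating cells (-2.40, adjusted p = 0.0242). In all 4 settings both polysome libraries lay below both monosome libraries. Usp12, a WDR48-dependent member, was the other one lower in polysomes of both cytosols: 1.01 and 2.57 against 8.26 and 7.08 (-2.08, adjusted p = 0.0431), and 4.62 and 1.66 against 23.8 and 7.72 (-2.35, adjusted p = 0.0230). Its proliferating polysome values rest on 6 and 16 reads. With 1 library left out the Usp12 differences ranged from -2.90 to -1.56 in proliferating and from -3.23 to -1.29 in differentiating cytosol. Neither Usp12 call held in every such fit. In differentiating cytosol Usp15 (-1.38, adjusted p = 0.0316), Usp3, a histone H2A deubiquitinase (-1.64, adjusted p = 0.0427), and Usp30 (-1.32, adjusted p = 0.0450) were also lower in polysomes. For Usp3 the replicates differed, with 36.5 and 51.1 in polysomes against 56.4 and 217 in monosomes. Without the second monosome library its difference was -0.35 (adjusted p = 0.665) and that of Usp30 was -0.68 (adjusted p = 0.364). Each held in 1 of 4 fits with a library left out, and Usp15 in 0 of 4.

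In the membrane fraction few genes of any kind passed. In proliferating membrane 0 members did, where 0.796% of all genes did. Usp21, Usp30 and Usp25 were the 3 of 42 members at an unadjusted p under 0.05, where 1572 of 11176 genes were. In DESeq2 1 member and 377 of all genes passed. The median log2 difference there was 0.09 over the members and 0.22 over all genes. In differentiating membrane only Usp21 passed, on the monosome side, as 1.91% of all genes did, and 0 members passed on the polysome side, as 2.05% did. Medians there were 0.31 and 0.24. With the size factors of DESeq2 all genes split into 18 higher and 73 lower in proliferating membrane instead of 40 and 49, and 134 and 253 in differentiating membrane instead of 229 and 213. Usp19, Usp32, Usp39 and Usp20 passed in none of the 4 settings.

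Usp30, the mitochondrial member, pointed to opposite sides in the fractions of proliferating cells. Its cytosol libraries had 17.9 and 18.3 CPM in polysomes and 33.6 and 34.7 in monosomes, and its membrane libraries 46.4 and 75.6 in polysomes and 21.5 and 30.8 in monosomes. The polysome and monosome levels therefore did not overlap in either fraction, with polysomes lower in the cytosol and higher in the membrane. These levels are relative to each library and do not give the part of the mRNA on polysomes. The test of this difference between fractions, chosen after the values were seen, gave 2.14 on the log2 scale (SE 0.62, adjusted p = 0.0532) and did not pass. In differentiating cells it gave 1.62 (SE 0.62, adjusted p = 0.196). Over all members this test called 0 of 42 in either state, where 7.29% of all genes passed in proliferating and 4.1% in differentiating cells. An unadjusted p under 0.05 was reached by 4 and 2 members, where 2294 and 1737 of 11176 genes reached it. In DESeq2 3 and 0 members, and 1250 and 796 of all genes, passed.

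Most of the cytosol gradient calls were lost in at least 1 of the 4 fits with a library of their comparison left out. In proliferating cytosol 3 members were called without the first polysome library, 0 without the second, 1 without the first monosome library and 2 without the second. In differentiating cytosol these counts were 4, 3, 5 and 7. The shares of all genes called in the same fits are not given here, so a loss particular to the members is not claimed. Usp5 and Usp21 held in all 4 such fits of differentiating cytosol, and Usp21 in 3 of 4 of proliferating cytosol. In differentiating membrane the Usp21 call held in 1 of 4, that without the second monosome library.

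**Figure D2:**
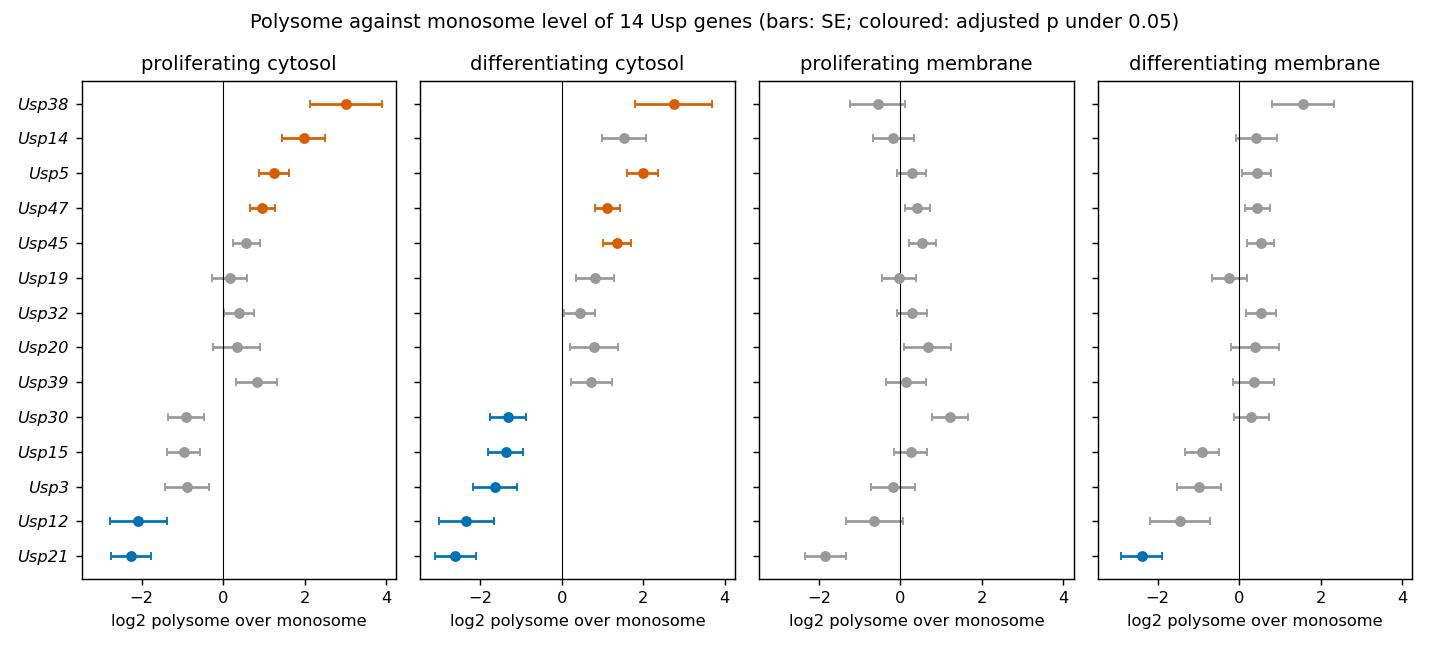
Log2 difference between polysomes and monosomes (horizontal axis, bars are SE) for 14 members in the cytosol and membrane fractions of proliferating and differentiating cells; orange and blue points passed an adjusted p of 0.05 and grey points did not. Usp38, Usp5 and Usp47 lie to the right in both cytosol panels, and Usp21 lies to the left of 0 in all 4 panels.

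Between membrane and cytosol 6 members passed in proliferating and 2 in differentiating cells. In proliferating cells 4 members were higher in the membrane fraction and 2 lower, where 23.2% of all genes were higher and 11.5% lower; this is 14.3% of the members. In differentiating cells 1 was higher and 1 lower, where 14.2% and 5.49% of all genes were; this is 4.76% of the members. The median log2 difference over the members was 0.32 in proliferating and 0.24 in differentiating cells, against 0.17 and 0.07 over all genes. With the size factors of DESeq2 the median over all genes in proliferating cells was -0.00. All genes then split into 2231 higher and 1815 lower instead of 2597 and 1290, and the members into 2 higher and 3 lower.

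Usp38 had the largest membrane difference in proliferating cells, 2.12 (SE 0.56, adjusted p = 0.00970), and kept an adjusted p under 0.05 with each of 8 libraries left out. Its cytosol libraries had 2.36 and 5.78 CPM in polysomes and 0.275 and 0.664 in monosomes; the membrane libraries had 3.41 and 6.97 and 6.55 and 8.63. The gap lay mostly in the monosomes, where the fractions did not overlap. The cytosol monosome values rest on 1 and 3 reads, against 47 and 54 in the membrane monosome libraries. The same cytosol monosome libraries also entered the polysome difference of Usp38 in proliferating cytosol, so the 2 results are not separate. Usp6nl, the Rab regulator, had 16.3 to 26.3 in the cytosol and 32.9 to 48.6 in the membrane, without overlap, and a difference of 0.82 (SE 0.24, adjusted p = 0.0156). This call held in 3 of 8 fits with a library left out, and was lost with no filter (adjusted p = 0.135). Usp47 had a difference of 0.66 (adjusted p = 0.0305), held in 0 of 8 such fits. Usp19, which carries a transmembrane anchor, had 6.61 to 10.8 in the cytosol and 14.2 to 18.4 in the membrane without overlap, and a difference of 0.85 (SE 0.30, adjusted p = 0.0440). Usp19 passed only with TMM scaling and the filter, since its adjusted p was up to 0.204 with DESeq2's factors, DESeq2's test or no filter, and Usp47's up to 0.235. Usp46, a WDR48 partner like Usp12, had 2.41 to 10.4 in the cytosol and 1.65 to 2.57 in the membrane, a difference of -1.42 (SE 0.49, adjusted p = 0.0396). Usp21 had a difference of -1.12 (SE 0.35, adjusted p = 0.0221). The calls held in 1 of 8 such fits for Usp19, 3 for Usp46 and 5 for Usp21.

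Among the members attached to organelle membranes, 1 of 3 thus passed. Usp30 had 17.9 to 34.7 in the cytosol and 21.5 to 75.6 in the membrane in proliferating cells, a difference of 0.68 that did not pass (SE 0.31, adjusted p = 0.103), and 0.58 in differentiating cells (adjusted p = 0.212). Usp32 had 0.33 (adjusted p = 0.366) and 0.26 (adjusted p = 0.546). Usp19 had 0.61 in differentiating cells (adjusted p = 0.206). Usp39 had 0.09 and -0.13, and Usp20 -0.01 and -0.04, in proliferating and differentiating cells; the signs of these small values changed with the scaling or with 1 library left out.

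In differentiating cells Usp12 was 1.95 lower in the membrane on the log2 scale (SE 0.50, adjusted p = 0.0141). Its cytosol libraries had 4.62, 1.66, 23.8 and 7.72 CPM and its membrane libraries 0.692, 1.47, 3.79 and 2.18. Usp35, linked to mitochondria and mitosis, was 1.85 higher (SE 0.62, adjusted p = 0.0491). It had 1.61, 3.49, 0 and 1.36 in the cytosol and 3.87, 7.06, 2.90 and 4.90 in the membrane. The call for Usp35 held in 1 of 8 fits with a library left out, and that for Usp12 in 4 of 8. In proliferating cells 1 member was called without the first cytosol polysome or the second membrane polysome library, 2 without the second membrane monosome library, and 3 without the first membrane polysome or the first cytosol monosome library. In differentiating cells 0 were called without the first polysome library of either fraction or the second membrane monosome library, 1 without the second polysome library of either fraction or the first cytosol monosome library, and 3 without the second cytosol monosome library. For these fits too, the share of all genes called is not given here, so the counts are not read as particular to the members. The difference between states in the membrane to cytosol ratio was tested directly. Here 0 members and 0.0% of all genes passed, 669 genes and 0 members reached an unadjusted p under 0.05, while 14 genes and 0 members passed in DESeq2.

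**Figure D3:**
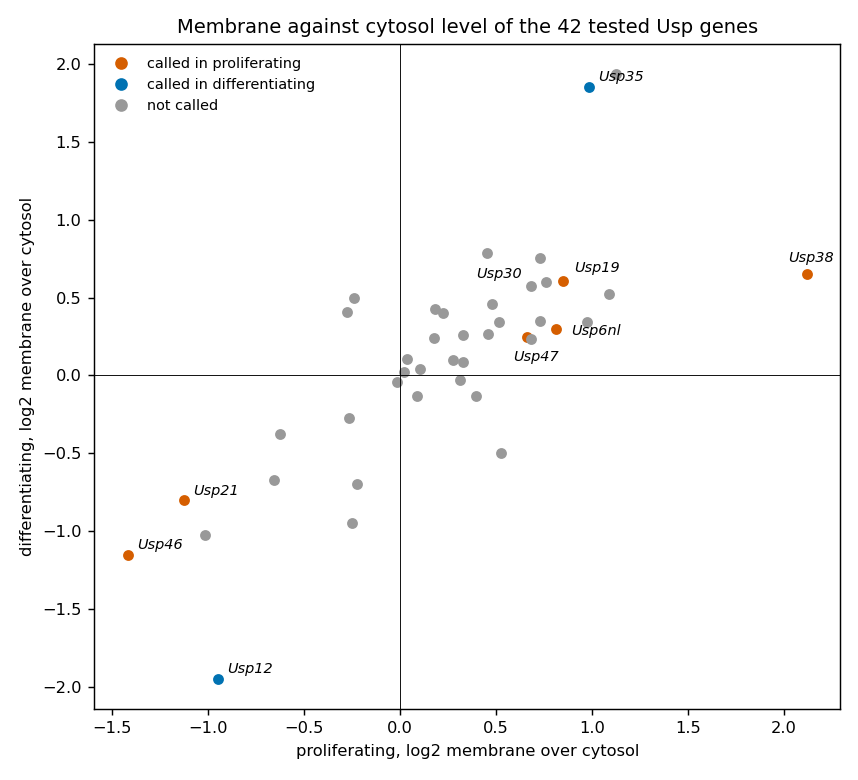
Log2 membrane over cytosol of the 42 tested members in proliferating (horizontal) and differentiating cells (vertical), each the mean over polysomes and monosomes; orange points passed in proliferating and blue points in differentiating cells. Usp38 lies at 2.12 and Usp46 at -1.42 on the horizontal axis, and Usp35 at 1.85 and Usp12 at -1.95 on the vertical axis.

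Puromycin exposure was measured in 1 library per fraction and time, so the spread comes from the fit over minutes. The change of the membrane to cytosol ratio per 30 min passed in 0 of 40 members, where 0.0% of 9919 genes passed. An unadjusted p under 0.05 was found for 9 members and 2535 genes, and the median change was 0.30 over the members and 0.11 over all genes. Without the 30 min pair of libraries 6 members passed, where 26.4% of all genes did, and without the 60 min pair 2 passed, where 24.5% did. Exposed libraries (30 and 60 min) were also set against the others (untreated and 0 min). Here 9 members rose in the membrane relative to the cytosol and 2 fell, where 19.0% of all genes rose and 20.5% fell. In that coding 30 and 60 min served as replicates of each other, and so did untreated and 0 min. Its SEs and adjusted p-values therefore rest on libraries of different exposures, not on replicates of one exposure. The marker genes of the membrane fraction moved as well. Cd63 had 859 CPM in the cytosol and 22059 in the membrane at 0 min, and 12316 and 10498 at 60 min. Hspa5, Pdia3 and Calr were likewise higher in the cytosol than in the membrane library at 30 and 60 min. The exposed cytosol libraries thus differed in composition, and the part of this in the members' levels was not tested. The ratios below are log2 membrane over cytosol with 0.5 CPM added to both, in the order untreated, 0, 30 and 60 min.

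Usp34, a large protease of Wnt signalling, had ratios of 0.93, 1.22, 2.21 and 2.50; its membrane level was 20.0, 21.8, 21.1 and 25.1 CPM and its cytosol level 10.2, 9.07, 4.18 and 4.03. Usp6nl had ratios of 0.84, 1.02, 1.81 and 2.25, with a membrane level of 34.6, 41.7, 39.2 and 33.4 and a cytosol level of 19.1, 20.2, 10.8 and 6.62. In both genes the cytosol level was lower after exposure while the membrane level moved little. Usp47 had ratios of 0.68, 0.55, 1.56 and 1.59, and Usp48 had 0.35, 0.27, 1.37 and 1.15. For these 4 members both exposed ratios lay above both others. The exposed against unexposed differences were 1.36 (SE 0.32, adjusted p = 0.00376) for Usp34, 1.11 (SE 0.27, adjusted p = 0.00415) for Usp6nl, 0.96 (SE 0.17, adjusted p = 4.39e-04) for Usp47 and 0.96 (SE 0.18, adjusted p = 7.48e-04) for Usp48. Usp42 (2.23, adjusted p = 0.0239), Usp31 (1.40, adjusted p = 0.0458), Usp1 (0.98, adjusted p = 0.0446), Usp32 (0.92, adjusted p = 0.0446) and Usp45 (0.67, adjusted p = 0.0402) also passed.

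Usp30 moved the other way, with ratios of 0.85, 1.06, 0.22 and -0.06 and a difference of -0.89 (SE 0.22, adjusted p = 0.00523). Its membrane level stayed at 46.8 to 51.3 CPM while its cytosol level was 28.2, 24.2, 40.1 and 52.3. Usp14 fell too, with ratios of 0.54, 1.03, 0.14 and 0.19 and a difference of -0.61 (SE 0.21, adjusted p = 0.0330). Usp19 had ratios of 0.85, 0.92, 1.02 and 1.26 and a change per 30 min of 0.18 that did not pass (adjusted p = 0.563). Usp39 (0.07, adjusted p = 0.800) and Usp20 (0.12, adjusted p = 0.708) did not pass either. Usp53 was below the count filter and has no test. It was at 0.978, 1.01, 3.56 and 7.13 CPM in the membrane and 0.947, 0.151, 0.107 and 0.288 in the cytosol, so its ratio was 0.03, 1.22, 2.74 and 3.28. It is named here because of these values. Of its 184 reads, 71 came from 1 library.

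For the level over both fractions, the slope per 30 min passed in 0 of 40 members, where 0.423% of all genes passed. An unadjusted p under 0.05 was found for 5 members. The count over all genes at that limit is not given here, so no excess in the members is claimed. Usp35 had the lowest p, with a slope of 0.85 (SE 0.19, adjusted p = 0.148); its cytosol level was 0.379, 0.756, 1.39 and 3.31 and its membrane level 3.18, 3.42, 5.53 and 7.53 CPM. Usp19 had 0.30 (adjusted p = 0.510), Usp30 0.24 (adjusted p = 0.669) and Usp32 -0.13 (adjusted p = 0.829).

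**Figure D4:**
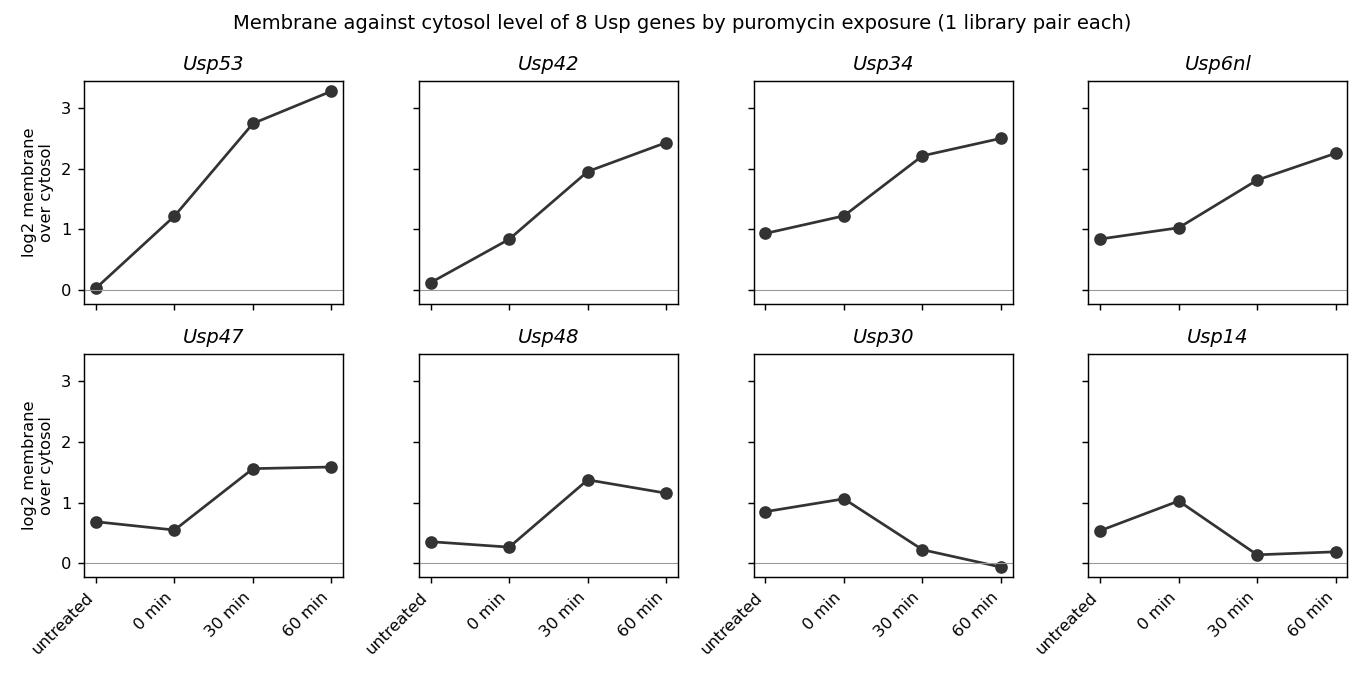
Log2 membrane over cytosol (vertical axis, 0.5 CPM added) of 8 members in the untreated cells and at 0, 30 and 60 min of puromycin, with 1 library pair per point and no error bars. Usp53, Usp42, Usp34, Usp6nl, Usp47 and Usp48 are higher at 30 and 60 min than before, and Usp30 and Usp14 are lower.

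Site choice was measured as the share of reads at the distal of the 2 main sites, in 25 members among 4554 genes with such a pair. Between membrane and cytosol 0 of 25 members passed in proliferating cells, where 0.527% of all pairs did, and 0 in differentiating cells, where 0.022% did. No member had an unadjusted p under 0.05 in the first, and 3 had in the second. Between polysomes and monosomes 0 members passed, where 1.01% of pairs did, with 4 at an unadjusted p under 0.05. How many of all pairs reached an unadjusted p under 0.05 is not given here. These counts are therefore not read as a trait of the members. Between states 1 member passed, Usp21, where 1.54% of pairs did. Members' medians in these 4 comparisons were 0.25, 0.12, 0.22 and 0.33 on the log2 scale of distal over proximal, and those of all pairs were 0.15, 0.15, 0.07 and 0.14.

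The 2 sites of Usp21 lie 4256 nt apart on the minus strand of chromosome 1 (mm9), the proximal at 173216336 and the distal at 173212080. RefSeq gives the whole gene a span of 6013 nt in GRCm38, so the sites are most of a gene's length apart; whether the proximal site lies in an intron, a coding exon or the 3' UTR was not analysed here. In proliferating cells the distal share was 51.7% and 73.1% in cytosol polysomes, 46.6% and 43.5% in cytosol monosomes, 66.7% and 58.5% in membrane polysomes, and 56.6% and 42.9% in membrane monosomes. In differentiating cells it was 30.5% and 49.3%, 15.4% and 30.9%, 28.9% and 55.2%, and 20.0% and 27.5% in the same order. In each of the 4 combinations both differentiating libraries lay below both proliferating ones. The other libraries of proliferating cells did not all lie that high. The share was 30.6% and 36.5% in the untreated cytosol and membrane libraries of the puromycin series, 20.8% and 34.6% at 0 min and 25.0% to 30.3% after exposure, all within the range of the differentiating libraries. It was 50.0% and 46.7% in the whole cytosol and membrane libraries, also within that range. The log2 difference in distal over proximal use was -1.46 (SE 0.33, adjusted p = 0.0261). In cytosol monosomes the proximal site had 37.2 and 40.4 CPM by the plain library total in proliferating and 135 and 38.5 in differentiating libraries, so only the first replicate was higher. The distal site there had 32.6 and 31.2 against 24.5 and 17.2, lower in both. In each of the other combinations both differentiating libraries lay above both proliferating ones at the proximal site. Cytosol polysomes had 14.1 and 11.6 in differentiating against 9.63 and 2.96 in proliferating libraries. Membrane polysomes had 11.02 and 6.31 against 3.16 and 2.91, and membrane monosomes 88.3 and 32.1 against 22.4 and 14.9. The distal site overlapped between states in these combinations. Polysomes held a larger distal share than monosomes, but the difference of 1.05 did not pass (SE 0.33, adjusted p = 0.172). The state call held in 7 of 16 fits with a library left out. It was lost, with an adjusted p of up to 0.0843, without either cytosol monosome library, the first membrane monosome, the first membrane polysome or the second cytosol polysome library of proliferating cells, or any replicate 1 library of differentiating cells. It was not made with limma on log2 ratios (adjusted p = 0.0813).

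**Figure D5:**
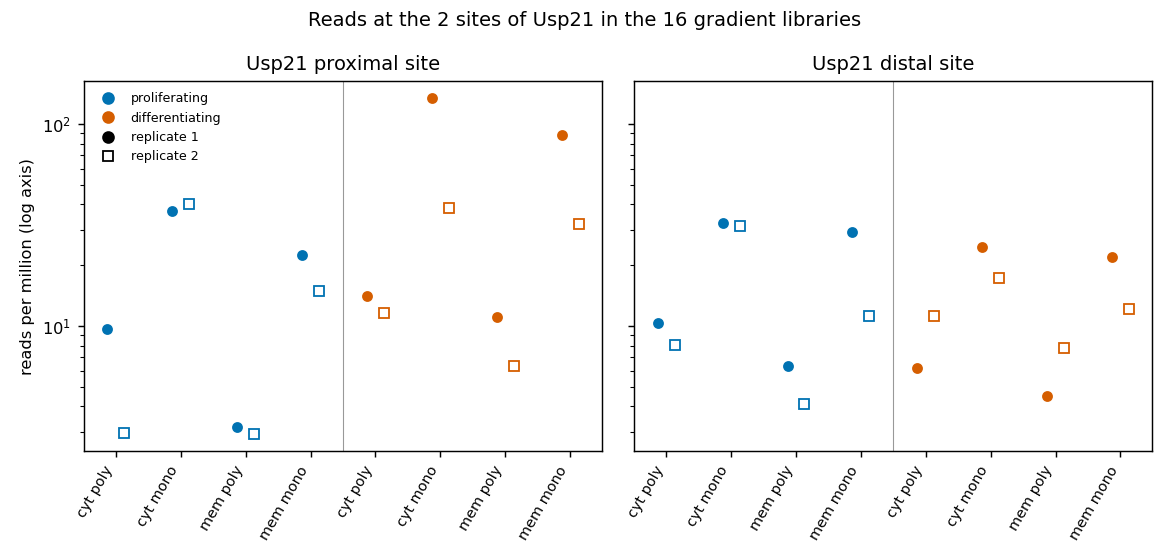
CPM by the plain library total (vertical log axis) at the proximal and the distal site of Usp21 in the 16 gradient libraries; blue is proliferating, orange differentiating, filled circles replicate 1 and open squares replicate 2. The proximal site reaches 135 CPM in a differentiating cytosol monosome library, and the distal site stays at or below 32.6.

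The most abundant members showed no such shift. Usp47, with sites 900 nt apart, had a state difference of 0.39 (adjusted p = 0.525) and a polysome difference of -0.50 (adjusted p = 0.427). Usp36, with sites 1203 nt apart, had -0.10 (adjusted p = 0.951) and 0.22 (adjusted p = 0.859). Usp36 had the lowest unadjusted p of any member between fractions, in differentiating cells, with 1.46 toward the distal site in the membrane (adjusted p = 0.423).

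For Usp22, the deubiquitinase of the SAGA complex, the share followed the replicate number. The distal site, 148 nt beyond the proximal, took 57.1% to 76.9% of the pair's reads in the 8 replicate 1 libraries and 83.2% to 95.2% in the 8 replicate 2 libraries, of both states, fractions and gradient parts. In the puromycin libraries it took 75.8% to 87.8%. Usp30, with sites 585 nt apart, was alike: 48.5% to 67.2% in replicate 1 and 67.4% to 86.5% in replicate 2. These were 2 of 25 members, and 2.68% of all pairs had replicate numbers that did not overlap. The level of Usp22 was also the higher one in replicate 2 in all 8 groups, for example 65.7 against 42.8 CPM in proliferating cytosol polysomes. Between states the difference was 0.68 for Usp22 (SE 0.76, adjusted p = 0.779) and -0.17 for Usp30 (SE 0.49, adjusted p = 0.965), neither of which passed. Between same-numbered libraries the distal share was higher in the membrane than in the cytosol in 7 of 8 pairs for Usp30, with gaps of -0.01 to 14.3 percentage points, and in 7 of 8 for Usp22, with gaps of -3.12 to 4.98. The test between fractions gave 0.29 (adjusted p = 0.962) and 0.65 (adjusted p = 0.935) for Usp30 in proliferating and differentiating cells.

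RNA-seq of 1 library per fraction listed 41 of the members, with counts in the constitutive and the alternative part of the 3' UTR; it allows no test. A ratio of at least 2-fold in membrane over cytosol was found for 3 of 37 members with enough reads, where 24.6% of genes reached it, and a ratio at least 2-fold lower for 1, where 13.5% did. The 3 were Usp30 at 2.67-fold, Usp42 at 2.35-fold and Usp24 at 2.25-fold, and Usp46 was at 0.446. In the insoluble fraction 15 of 38 members were at least 2-fold above the cytosol, where 36.8% of genes were, and 1 at least 2-fold below, where 16.7% were. Against the membrane fraction, 16 of 40 members were at least 2-fold higher in the insoluble fraction, where 19.5% of genes were, and 0 lower, where 9.26% were. The median insoluble to membrane ratio was 1.77 over the members and 1.13 over all genes. Examples are Usp19 at 3.00, Usp36 at 2.99 and Usp21 at 2.89, while Usp46 at 0.674 and Usp39 at 0.742 were below 1. The share of reads in the alternative 3' UTR part was higher in the membrane than in the cytosol in 21 and lower in 7 of 33 members with at least 40 reads in both, with a median gap of 1.87 percentage points against 1.37 over all genes. The remaining members, Usp5, Usp8, Usp11, Usp19 and Usp21, had 0 such reads in both fractions and could not differ. The split into higher and lower was not counted over all genes. The strand used in counting is not stated, so reads of overlapping genes cannot be told apart here.

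Other genes of the ubiquitin system were counted in the same fits. Of 31 other deubiquitinases tested, 7 were higher and 5 lower in differentiating cells, where 16.3% and 19.2% of all genes were. In the membrane of proliferating cells 3 were higher and 7 lower, where 23.2% and 11.5% of all genes were. Among the lower were Otub1 (-0.86, adjusted p = 0.00789) and Eif3f, a translation initiation subunit (-1.94, adjusted p = 2.43e-04). Of 13 partner proteins of the family, 0 were higher and 4 lower in differentiating cells, against the same 16.3% and 19.2% of all genes. These were G3bp1 (-1.12, adjusted p = 9.35e-04) and G3bp2 (-0.80, adjusted p = 0.0157), which bind Usp10, Gmps (-0.72, adjusted p = 0.00282), which binds Usp7, and Sart3 (-0.71, adjusted p = 0.00242), which recruits Usp4 and Usp15. Usp7 itself, named beside its partner, had -0.50 (adjusted p = 0.0594) and did not pass. In the cytosol gradients 3 of the 13 partners were higher in polysomes and 2 lower in each state, where 11.5% and 12.8% of all genes were in proliferating and 12.6% and 11.3% in differentiating cytosol. Of 6 ubiquitin genes and activating enzymes, Uba1, which loads ubiquitin, was lower in differentiating cells (-0.69, adjusted p = 0.00602). In cytosol polysomes of proliferating cells Ubb (1.44, adjusted p = 0.0232) and Uba1 (1.29, adjusted p = 0.0139) were higher.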

How the data were processed

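The poly(A) site table and the RNA-seq table hold read counts, as the authors deposited them per the file headers. Per the submitters' processing notes, cutadapt, Bowtie2, STAR 2.5.2 and mm9 were used; their roles and the counting rules are not given in the sources used here. Site counts were summed per symbol over both strands. Before this, 651 positions listed under several symbols (0.56% of reads) were left out, and none touched a member. Members and gene lists were chosen with earlier results of these data known. Named genes were those called (up to 10 a direction), else the 3 lowest p, plus the 3 most abundant members and Usp19, Usp30 and Usp32. edgeR 4.0.16 (R 4.3.3; filterByExpr, TMM, robust quasi-likelihood test, Benjamini-Hochberg over all genes, threshold 0.05) was fitted to the 16 gradient libraries without a replicate block, and separately to the 8 puromycin libraries; SE is the log2 difference over the root of F. Site pairs lay at most 10000 nt apart with a mean of at least 10 reads per library and 5% at the rarer site. Alternatives were DESeq2 1.42.0, its size factors, limma 3.58.1, other filters, replicate blocks and leaving out libraries. RNA-seq ratios needed 50 reads over both libraries and added 1 read to each count. Scripts were tested on simulated data.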

Additional observations from a re-analysis of the deposited data

How the results depend on the processing

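Same-numbered libraries deviated together within a state (correlations of 0.469 to 0.725 over 12 pairs of groups) and little between states (0.0985 to 0.255 over 16); nothing else ties the numbers to a shared culture. With a replicate block more genes of all kinds were called, and the count of called members went from 6 to 13 for membrane against cytosol in proliferating and from 2 to 5 in differentiating cells, and for polysomes against monosomes to 12, 2, 15 and 3 (from 6, 0, 9 and 1) in proliferating cytosol and membrane and differentiating cytosol and membrane. The shares of all genes called in these 6 fits were 46.6%, 32.6%, 38.5%, 8.98%, 37.2% and 16.6%. It gave 5 and 2 members for the difference of gradients between fractions, 1 for site use between fractions of differentiating cells and 1 for site use between gradient parts, where 17.3%, 10.8%, 0.966% and 6.35% of all genes or pairs were called. With a replicate block within each state, added after seeing the data, these counts were 19, 8, 15, 5, 19, 8, 8, 4, 2 and 1, and the shares of all genes or pairs 56.1%, 43.4%, 48.0%, 23.1%, 46.2%, 29.7%, 28.5%, 18.7%, 1.65% and 7.66%. For the state comparison the block gave 19 (46.6% of all genes) and the block within states 14 (40.7%), against 15 (35.5%).

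The DESeq2 size factors and the absence of a filter each gave 1 called member for the fraction in differentiating cells, and the DESeq2 test and no filter each gave 1 for proliferating membrane gradients. The DESeq2 test gave 3 and no filter 2 for the difference of gradients between fractions in proliferating cells. Puromycin coded as exposed or not gave 11 members (39.4% of all genes), and leaving out the 30 or the 60 min pair gave 6 or 2 (26.4% or 24.5%). limma gave 0 for site use between states. The cause was not tested. With 1 library left out, counts were 1 to 5 and 0 to 3 for the fraction (proliferating, differentiating). For the gradients of proliferating cytosol, differentiating cytosol and differentiating membrane they were 0 to 3, 3 to 7 and 0 to 1. They were 8 to 15 for state and 0 to 1 for site use between states. The shares of all genes or pairs called in these fits are not given here.

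Values near 0 that were not called changed sign. Usp39 between fractions of proliferating cells was -0.098 with DESeq2 factors, -0.097 with its test and -0.13 with no filter, and in proliferating membrane gradients -0.046, -0.045 and -0.090. Usp20 between fractions of differentiating cells was 0.00078 with the block and 0.046 with that within states. For the fraction by state, Usp20 was 0.054, 0.055, 0.13, 0.018 and 0.061 with DESeq2 factors, its test, no filter and these blocks. Usp32 there was 0.0053, 0.0087 and 0.080 with the first 3 of these, and Usp30 0.055 with no filter. In the state comparison Usp39, Usp47 and Usp30 were 0.013, 0.036 and -0.086 with the block within states. In the puromycin fit by fraction Usp39 and Usp20 were -0.021 and -0.044 without the untreated pair and Usp39 -0.023 without the 0 min pair. For minutes Usp39 was -0.055 with DESeq2 factors and -0.0082 without the 0 min pair.

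With 1 library left out, the ranges between fractions were -0.34 to 0.052 for Usp20 and -0.26 to 0.15 for Usp39 in proliferating cells, and -0.59 to 0.15 for Usp39 and -0.42 to 0.57 for Usp20 in differentiating cells. For the fraction by state they were -0.37 to 0.15 for Usp32, -0.40 to 0.58 for Usp20, -0.32 to 0.21 for Usp30, -0.67 to 0.15 for Usp39, -0.46 to 0.15 for Usp19 and -2.03 to 0.95 for Usp38. In cytosol gradients they were -0.11 to 0.53 for Usp19 and -0.022 to 1.02 for Usp32 (proliferating) and -0.40 to 1.61 for Usp20 (differentiating). In membrane gradients they were -0.14 to 0.25 for Usp39 and -0.36 to 0.053 for Usp19 (proliferating), and -0.56 to 1.10 for Usp39, -0.37 to 1.02 for Usp20, -0.12 to 0.69 for Usp30 and -0.48 to 0.055 for Usp19 (differentiating). Between states the range was -0.0010 to 0.26 for Usp32. Site use ranged from -0.51 to 0.18 for Usp36 and -0.43 to 0.14 for Usp47 between fractions of proliferating cells, and from -0.27 to 0.077 for Usp36 between states.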
